A study of Sus scrofa with 59 samples.

Results

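The comparison set muscles with high expression of glycolytic enzymes against muscles with low expression. Total RNA of the longissimus dorsi, a muscle of the back, was measured on 59 arrays, each for 1 pig of an LD/LW x Duroc cross. The pigs were 170 days old, and the labels name no treatment or genotype that set any of them apart. The labels give neither sex, nor array batch, nor a trait value for a single pig. The muscles were chosen by a score, the mean of the standardised log2 values of GPI, PFKM, TPI1, PGK1, PGAM2, ENO3, PKM and LDHA, with the brightest probe set of each gene. The 20 arrays with the highest score formed the glycolysis-high group and the 20 with the lowest the glycolysis-low group. The middle 19 were left out, so that 40 of 59 muscles entered the comparison. All differences are high minus low on the log2 scale of the deposited values, and each array is a different pig, so the p-values measure the spread between these pigs.

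Glycolysis splits glucose into pyruvate and yields ATP without oxygen. In skeletal muscle it is fed mainly by glycogen and is strongest in fast fibres, while slow fibres rely more on oxidation in mitochondria. In the pig longissimus, a muscle rich in fast fibres, glycogen and the lactate formed after slaughter bear on the pH of the meat. The score genes cover most of the pathway. GPI and PFKM act on hexose phosphates, TPI1 interconverts the triose phosphates, PGK1, PGAM2 and ENO3 lead to phosphoenolpyruvate, PKM makes pyruvate and LDHA turns pyruvate into lactate.

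The score ran from -2.60 in pig 72 to 1.32 in pig 54. Its median was 0.67 in the high group, 0.12 in the middle group and -0.52 in the low group. At the upper limit, the last muscle inside the high group had 0.34 and the first outside 0.31. At the lower limit, the last muscle outside the low group and the first inside both had -0.16, so the groups meet without a gap. The low group reached farther from the middle than the high group, with pig 72 well below the next muscle, pig 52, at -1.66.

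**Figure D1:**
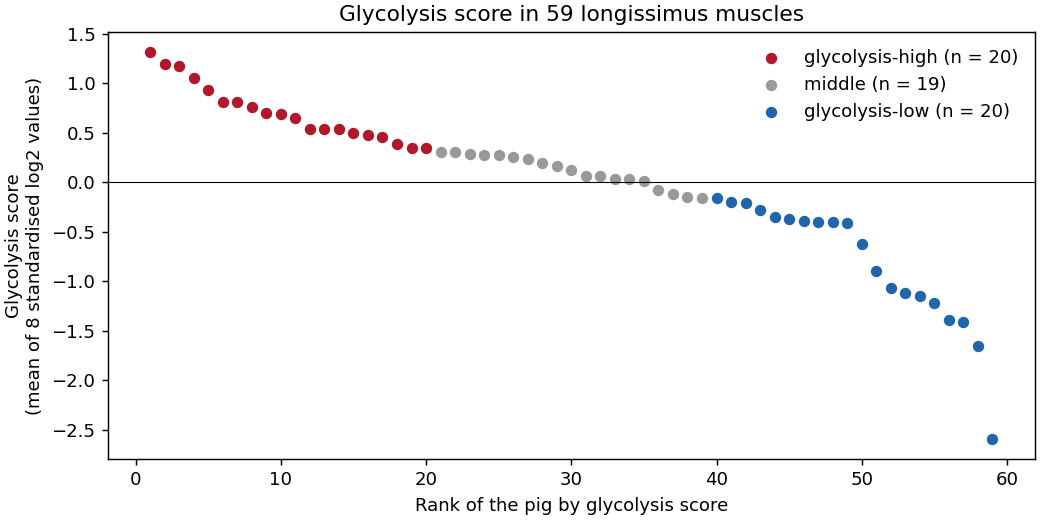
Glycolysis score of each of 59 muscles (vertical axis, mean of 8 standardised log2 values) by rank (horizontal axis), with 20 high muscles in red, 19 middle muscles in grey and 20 low muscles in blue. Scores run from 1.32 down to -2.60, and the tail on the low side is the longer.

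The score genes chose the groups, so their values are a description without a test. GPI ran from 13.40 to 13.74 (median 13.61) log2 in the high group and from 12.97 to 13.55 (median 13.32) in the low group. PFKM, the muscle phosphofructokinase, ran from 13.87 to 14.17 (median 13.98) and from 13.30 to 13.91 (median 13.74). LDHA ran from 14.45 to 14.60 (median 14.53) and from 14.27 to 14.59 (median 14.44). In these genes, and in TPI1, PGK1, PGAM2 and ENO3, all 20 high muscles lay above the median of the low group. PKM did not follow, with 8.80 to 9.40 (median 9.16) in the high and 8.76 to 9.40 (median 9.10) in the low group, and only 12 of 20 high muscles above the low median. Its probe set averaged 9.10 log2, where those of the other 7 genes averaged from 13.46 (GPI) to 14.58 (ENO3). The second PKM probe set had medians of 6.16 and 6.20, and so went slightly the other way. The label glycolysis-high therefore rests on 7 of the 8 genes. Group medians differed by 0.06 (PKM) to 0.29 (GPI) log2. The 7 bright genes lie near the top of the deposited values, which end at 15.04 and where differences can be compressed.

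**Figure D2:**
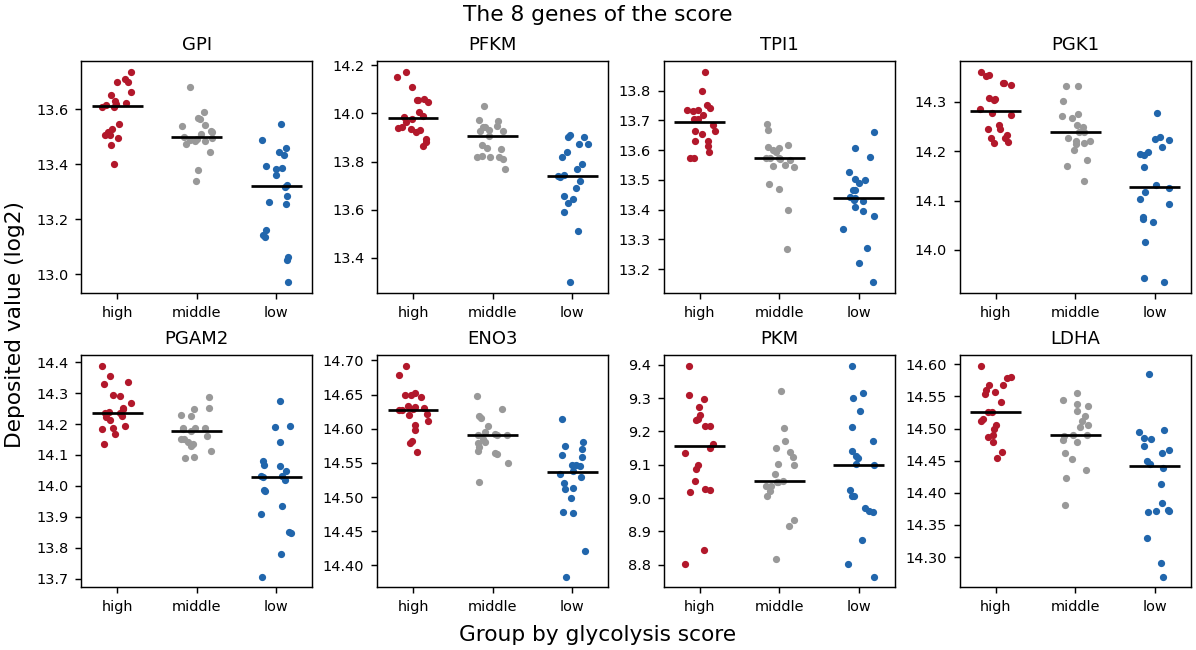
Deposited log2 values (vertical axes) of the 8 score genes in each muscle by group, with medians as black bars. In 7 genes all 20 high muscles lie above the low median, while the PKM values of both groups cover nearly the same range.

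The groups also differed along the leading axis of all other expression, which bears on every count that follows. This first principal component was taken over the tested probe sets in no gene list, held 19.8% of their variance and was turned to rise with the score. In SD units it ran from -0.71 to 1.36 (median 0.64) in the high group and from -2.68 to 1.12 (median -0.25) in the low group. The 8 arrays under -1.2 were all low muscles (pigs 5, 32, 36, 37, 48, 50, 52 and 72), a limit set after seeing the data. Their scores had a median of -1.11, against -0.40 in the other 12 low muscles, but the scores overlapped. Pig 5 of the 8 had -0.20, and pig 59 of the other 12 had -1.41. The mean of 18 heat shock genes had a median of 12.47 log2 in the 8 muscles under -1.2 and 11.86 in the other 12 low muscles. It was 11.91 in the middle and 11.69 in the high group, so the other 12 were not above the middle group.

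Other values of array and RNA quality overlapped between the groups, but some of them also moved with the score. The median correlation of an array with the others had medians of 0.9896 and 0.9877 in the high and low groups, with 8 low arrays below every high one and 7 high arrays above every low one. Its correlation with the score over 59 arrays was r = 0.58, and its part in the results was not tested. The 3′ minus 5′ difference had medians of 3.29 in the high and 3.40 in the low group for the actin control, 1.68 and 1.83 for EF1A, and 0.29 and 0.29 for GAPDH. The highest EF1A value was 3.72 in the low group and 2.28 in the high group, and 4 low arrays exceeded every high one. GAPDH ran from 0.24 to 0.34 in high and from 0.13 to 0.42 in low muscles. There 3 low arrays lay below and 1 above every high one, and r with the score was 0.34 over 59 arrays. The part of these control differences in the results was not tested. The Y-linked gene EIF1AY was above 7 log2 in 7 of 20 high, 6 of 20 low and 13 of 19 middle muscles. The part of the first component in the differences below was not tested. Further fits are given beside the results, 1 with the first component as a covariate and 1 without the 8 set-apart low muscles. The first component had r = 0.59 with the score, so the covariate fit also takes out part of the group difference. A call lost in it therefore says little by itself.

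**Figure D3:**
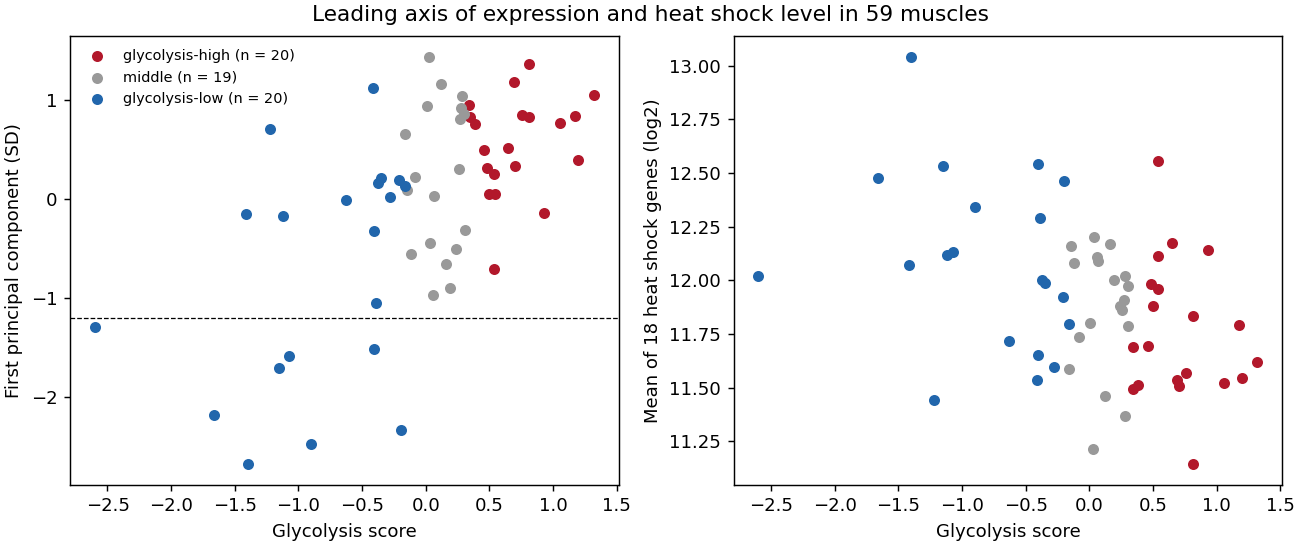
First principal component (left, SD units, dashed line at -1.2) and mean log2 value of 18 heat shock genes (right) against the glycolysis score of 59 muscles, coloured by group. All 8 muscles under the dashed line belong to the low group, and their heat shock levels lie between 12.02 and 13.04.

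Apart from the score genes, 11992 probe sets were tested. In glycolysis-high muscles 1576 were higher (13.1%) and 1176 lower (9.81%), or 22.9% in all, at a limma Benjamini-Hochberg adjusted p under 0.05. With the brightest probe set of each gene, 654 of 4920 genes were higher (13.3%) and 570 lower (11.6%), so that 24.9% of genes were called. Differences were mostly small, with a median size of 0.24 log2 over the called genes. Of these, 54 were higher and 56 lower by at least 0.5, and 4 differed by at least 1. With the first component as a covariate 183 genes were higher and 42 lower, and 138 genes were called in both fits. Without the 8 set-apart muscles 236 were higher and 64 lower. That fit had fewer arrays and a smaller gap in the score, and 256 of the 1224 calls passed in the same direction while 1222 had the same sign.

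Of 10 further glycolytic enzymes and regulators tested, 3 were higher and 1 lower, or 40% against 24.9% over all genes. The median difference was 0.07 against -9.8e-05 over all genes. The 3 higher genes were FBP2, BPGM and PFKFB4. FBP2, the muscle fructose bisphosphatase that acts opposite to phosphofructokinase, ran from 12.08 to 13.07 (median 12.49) log2 in high and from 10.95 to 12.57 (median 11.85) in low muscles. All 20 high muscles lay above the low median, and 7 above every low muscle. The difference was 0.69 ± 0.10 (SE, n = 20 and 20, limma adjusted p = 1.37e-05), or 1.61-fold. BPGM, which makes and removes bisphosphoglycerate, ran from 10.83 to 11.58 (median 11.29) and from 9.99 to 11.25 (median 10.79), with 11 high muscles above every low one. It differed by 0.49 ± 0.08 (limma adjusted p = 6.59e-05). PFKFB4, which sets the level of a phosphofructokinase activator, differed by 0.33 ± 0.06 (limma adjusted p = 0.000141). These 3 genes passed with the first component (limma adjusted p = 0.0115, 0.011 and 0.0355) and without the 8 muscles (0.00224, 0.00339 and 0.0025).

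LDHB, the lactate dehydrogenase subunit typical of heart and slow muscle, was lower in high muscles. It ran from 11.43 to 12.05 (median 11.78) log2 in the high and from 11.49 to 13.04 (median 12.01) in the low group, where 9 muscles exceeded every high one. The difference was -0.27 ± 0.08 (limma adjusted p = 0.0137). It gave -0.29 (0.101) with the first component and -0.22 (0.0954) without the 8 muscles, and passed in neither. The hexokinase gene HK1 gave -0.37 ± 0.16 and did not pass (limma adjusted p = 0.0857), although 10 low muscles lay above every high one. ENO1, the enolase of most other tissues, gave 0.15 ± 0.09 (0.218), but passed with the first component (0.35, 0.0232) and without the 8 muscles (0.30, 0.00746). GAPDH, at medians of 14.90 and 14.87 close to the top of the range, gave 0.02 ± 0.02 (0.374). Its 4 other probe sets ranged from -0.12 to 0.56, and the mean of all its probe sets was higher by 0.14 (limma adjusted p = 0.000277). PFKL (-0.16), PFKP (0.11) and ALDOC (0.02) did not pass.

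Glycogen genes were higher in part. Of 11 tested 6 were higher and none lower (54.5% against 24.9% over all genes), with a median difference of 0.14. PPP1R3B, a subunit that targets protein phosphatase 1 to glycogen, ran from 7.56 to 9.11 (median 8.24) log2 in high and from 5.67 to 8.82 (median 7.15) in low muscles. All 20 high muscles lay above the low median. The difference was 1.07 ± 0.22 (SE, n = 20 and 20, limma adjusted p = 0.000643), or 2.09-fold. STBD1, a glycogen-binding protein, differed by 0.52 ± 0.11 (limma adjusted p = 0.000866), and its second probe set by 0.40. PGM1, which links glucose 1-phosphate from glycogen with glycolysis, ran from 14.19 to 14.43 (median 14.32) and from 13.84 to 14.26 (median 14.18). Of 20 high muscles 18 lay above every low one, at a difference of only 0.17 ± 0.03 (limma adjusted p = 0.000172). Many low muscles still lay inside the high range, as its lower end was close to the low median.

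Of the genes of glycogen breakdown, PYGM, PYGL and PHKB were higher and PHKA2 did not pass. PYGM, the muscle glycogen phosphorylase, differed by 0.11 ± 0.03 (limma adjusted p = 0.00113), with 0.19 to 0.42 in its 3 other probe sets. PYGL, the phosphorylase typical of liver, differed by 0.28 ± 0.08 (0.00891), and PHKB, a subunit of the kinase that switches phosphorylase on, by 0.26 ± 0.06 (0.002). Of the enzymes of synthesis, the glycogen synthase GYS1 (-0.02), UGP2 (0.09) and glycogenin GYG1 (0.14, limma adjusted p = 0.0643) did not pass. PPP1R3B and PGM1, which were higher, are counted here neither with breakdown nor with synthesis. PHKA2, another subunit of that kinase, gave 0.04 and the phosphatase subunit PPP1CB -0.04. None of the 6 calls passed with the first component. Without the 8 muscles PGM1 (0.13, limma adjusted p = 0.0063) and PYGM (0.09, 0.0408) passed, while PPP1R3B gave 0.54 (0.0787).

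**Figure D4:**
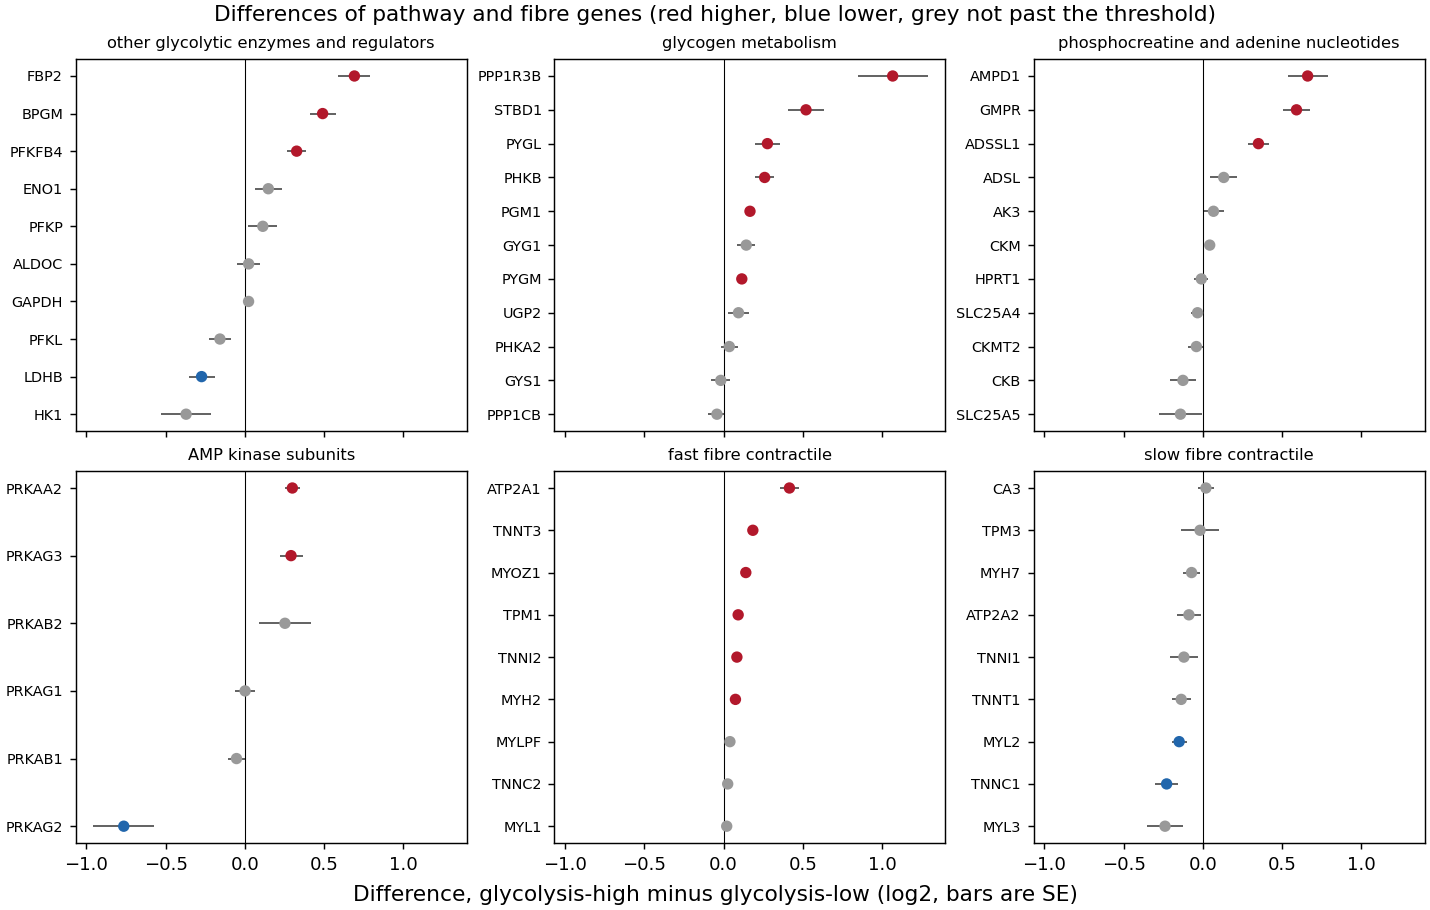
Difference between glycolysis-high and glycolysis-low muscles (horizontal axes, log2, bars are SE, n = 20 and 20) for the tested genes of 6 lists, in red where higher, in blue where lower and in grey where not past the adjusted threshold. FBP2 (0.69), PPP1R3B (1.07) and AMPD1 (0.66) lie farthest to the right in their lists, and PRKAG2 (-0.76) farthest to the left.

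Genes of sugar and lactate transport were mixed. Of 10 tested 4 were higher and none lower (40% against 24.9% over all genes), yet the median difference was -0.04. SLC16A3, the carrier by which glycolytic fibres export lactate, ran from 7.76 to 9.36 (median 8.52) log2 in high and from 7.09 to 8.71 (median 8.15) in low muscles, a difference of 0.43 ± 0.14 (limma adjusted p = 0.0178). The sugar transporter SLC2A12 differed by 0.56 ± 0.12 (0.00111), TXNIP, a brake on glucose uptake, by 0.20 ± 0.06 (0.00767) and RAB10, a small GTPase of vesicle traffic, by 0.18 ± 0.04 (0.00159). The insulin-responsive transporter SLC2A4 had medians of 7.26 and 7.32 and did not pass (-0.05 ± 0.05, limma adjusted p = 0.514). None of the 4 calls passed with the first component or without the 8 muscles.

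At the entry of pyruvate into mitochondria 2 of 10 genes were higher and 1 lower, with a median of -0.02, a share of 30% against 24.9% over all genes. PDHB, a subunit of pyruvate dehydrogenase, was higher by 0.13 ± 0.04 (limma adjusted p = 0.0251) and pyruvate carboxylase, PC, by 0.28 ± 0.09 (0.0267). The pyruvate carrier subunit MPC2 differed by -0.17 ± 0.05 (0.00843). None of these passed in either further fit. PDK4, the kinase that turns pyruvate dehydrogenase off, had medians of 13.69 and 13.82 and did not pass (-0.14 ± 0.08, limma adjusted p = 0.21). Of 7 genes of the shuttles that carry electrons of NADH into mitochondria, 1 passed (14.3%, against 24.9% over all genes). This was GPD1 of the glycerol phosphate shuttle. It ran from 12.65 to 12.96 (median 12.82) and from 12.08 to 12.89 (median 12.51), with 8 high muscles above every low one. The difference was 0.33 ± 0.06 (limma adjusted p = 0.000101), and 0.25 (0.01) without the 8 muscles, but 0.21 (0.0519) with the first component. The malate-aspartate genes GOT1 (-0.19) and MDH1 (-0.14) did not pass.

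Adenine nucleotide turnover keeps ATP available when it is spent quickly. Of 11 tested genes 3 were higher and none lower, with a median of 0.04. This share of 27.3% was near the 24.9% called over all genes, so the values below are of single genes. AMPD1, the muscle AMP deaminase, ran from 12.90 to 13.73 (median 13.45) log2 in high and from 11.55 to 13.48 (median 12.88) in low muscles. It differed by 0.66 ± 0.13 (SE, n = 20 and 20, limma adjusted p = 0.000277). ADSSL1, the muscle adenylosuccinate synthase that acts after AMPD1 in the purine nucleotide cycle, differed by 0.35 ± 0.07 (0.000214), and 15 high muscles exceeded every low one. GMPR, which turns guanosine into inosine monophosphate, ran from 10.03 to 10.70 (median 10.43) and from 9.07 to 10.40 (median 9.87). All 20 high muscles exceeded its low median, and the difference was 0.59 ± 0.09 (limma adjusted p = 1.02e-05). All 3 genes passed without the 8 muscles, and ADSSL1 (0.0292) and GMPR (0.0109) also with the first component, where AMPD1 gave 0.14 (0.378). The creatine kinases CKM (0.04) and CKMT2 (-0.04) did not pass.

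Subunits of AMP kinase, the sensor of cellular energy, went both ways, with 2 of 6 higher and 1 lower. This share of 50% stood against 24.9% over all genes, in only 6 genes. PRKAA2, the catalytic subunit typical of muscle, ran from 12.34 to 12.79 (median 12.71) log2 and from 12.06 to 12.77 (median 12.34), a difference of 0.30 ± 0.05 (limma adjusted p = 2.54e-05). PRKAG3, the regulatory subunit of glycolytic muscle in which pig variants change glycogen content, differed by 0.29 ± 0.07 (0.00351). PRKAG2, another regulatory subunit, ran from 7.45 to 9.73 (median 8.22) in high and from 7.80 to 9.87 (median 9.00) in low muscles. It differed by -0.76 ± 0.19 (limma adjusted p = 0.00358), with 17 low muscles above the high median. PRKAA2 and PRKAG3 passed with the first component (limma adjusted p = 0.00411 and 0.0355) and without the 8 muscles (0.00464 and 0.0494), while PRKAG2 gave -0.03 (0.945) and -0.37 (0.277).

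Fast contractile genes were higher, mostly by small amounts. Of 9 tested 6 were higher and none lower (66.7% against 24.9% over all genes), and the median difference was 0.08. ATP2A1, the calcium pump of fast fibres, ran from 12.02 to 12.71 (median 12.29) log2 in high and from 11.45 to 12.30 (median 11.95) in low muscles. It differed by 0.42 ± 0.06 (SE, n = 20 and 20, limma adjusted p = 7.47e-06), and its second probe set by 0.17. The fast troponin TNNT3 differed by 0.18 ± 0.03 (0.00013), the Z-disc gene MYOZ1 by 0.14 ± 0.03 (0.00021), TNNI2 by 0.08 ± 0.02 (0.00517) and the fast myosin heavy chain MYH2 by 0.07 ± 0.02 (0.00719). TPM1 differed by 0.09 ± 0.03 (0.00721), but its other probe sets gave -0.23 and 0.04, and the mean of all gave -0.03 (0.629). MYLPF, MYL1 and TNNC2 did not pass. With the first component ATP2A1 (0.00478) and TNNT3 (0.00437) passed, and MYOZ1 (0.0182) joined them without the 8 muscles. In bulk RNA a smaller share of a fibre type and less RNA per fibre cannot be told apart.

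Of 9 slow contractile genes 2 were lower and none higher, with a median of -0.12. The share called, 22.2%, was near the 24.9% of all genes. TNNC1, the slow troponin C, ran from 13.43 to 14.23 (median 13.84) log2 in high and from 13.66 to 14.65 (median 14.03) in low muscles, a difference of -0.23 ± 0.07 (limma adjusted p = 0.0177). The slow myosin light chain MYL2 differed by -0.15 ± 0.05 (0.0168). The slow myosin heavy chain MYH7 had medians of 14.27 and 14.29 and did not pass (-0.07 ± 0.05, limma adjusted p = 0.361). With the first component MYL2 gave 0.107 and TNNC1 0.0994 as adjusted p, and neither passed without the 8 muscles. Both fast and slow contractile genes were bright in every muscle, as skeletal muscle RNA would be.

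Genes of calcium release and of the sarcomere were partly higher. Of 6 calcium genes 3 were higher and none lower (50% called against 24.9% over all genes), with a median of 0.28. RYR1, the calcium release channel of skeletal muscle, ran from 12.23 to 12.88 (median 12.59) log2 and from 11.63 to 12.58 (median 12.17), with 11 high muscles above every low one. It differed by 0.37 ± 0.07 (limma adjusted p = 0.000223). FKBP1A, which binds that channel, differed by 0.25 ± 0.05 (0.000127) and HRC, a calcium-binding protein of the reticulum, by 0.30 ± 0.07 (0.00332). Of 13 sarcomere genes 5 were higher and 1 lower (46.2% called against 24.9% over all genes), with a median of 0.07. The M-band genes MYOM2 (0.40 ± 0.07, limma adjusted p = 0.000185) and MYOM1 (0.30 ± 0.06, 0.000926) and the actin-capping CAPZB (0.32 ± 0.06, 0.000105) were among the higher. XIRP2, an actin-binding protein, differed by -0.15 ± 0.03 (0.00157), and all 20 low muscles lay above its high median. Of these genes FKBP1A (0.00155) and CAPZB (0.000805) passed with the first component, and all but HRC (0.0629) without the 8 muscles.

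Mitochondrial genes differed in few cases, against 24.9% called over all genes. Of 48 genes of oxidative phosphorylation none was higher and 2 were lower, with 38 negative values and a median of -0.05. Over all genes 2461 of 4920 values were negative, and the count of signs was not tested. The log2 summed level of the 48 genes had medians of 18.03 in high, 18.06 in middle and 18.08 in low muscles. NDUFB5 of complex I differed by -0.19 ± 0.04 (limma adjusted p = 0.000674) and the cytochrome oxidase subunit COX7A2 by -0.31 ± 0.08 (0.00593). Neither passed with the first component, and NDUFB5 alone passed without the 8 muscles (0.0172). Of 16 TCA cycle genes the isocitrate dehydrogenase subunits IDH3G (0.16 ± 0.05, limma adjusted p = 0.018) and IDH3A (0.19 ± 0.07, 0.0439) were higher. The IDH3A call ended when any 1 of 21 pigs was left out (adjusted p up to 0.0723), yet it passed with the first component (0.0216) and without the 8 muscles (0.0306), while IDH3G passed in neither. Of 26 genes of fatty acid uptake and oxidation 2 were higher and 1 lower. CPT1A, which admits fatty acids into mitochondria, differed by 0.27 ± 0.08 (limma adjusted p = 0.00707) and passed in both further fits (0.0118 and 0.0257). CPT2 differed by 0.17 ± 0.06 (0.0241), and the isomerase ECI2 by -0.39 ± 0.13 (0.024), with 0.04 in its second probe set. The CPT2 medians were 6.138 log2 in the 8 set-apart muscles and 6.266 in the other 12 low ones. Both lay under the filter limit of 6.271, so the CPT2 call rests on low-group values near that limit. Neither CPT2 nor ECI2 passed in either further fit. None of 3 tested genes of the pentose phosphate pathway passed in limma, with adjusted p of 0.137 for TALDO1, 0.741 for RPIA and 0.819 for TKT.

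The 12 largest positive differences included genes of varied function. MSS51, a gene of skeletal muscle mitochondria, ran from 10.33 to 11.70 (median 11.05) log2 in high and from 7.78 to 11.32 (median 10.08) in low muscles. It had the largest positive difference, 1.25 ± 0.24 (SE, n = 20 and 20, limma adjusted p = 0.000214), or 2.38-fold. MSTN, which encodes the muscle growth inhibitor myostatin, ran from 5.40 to 7.62 (median 6.64) and from 5.06 to 7.02 (median 5.77). It differed by 0.89 ± 0.17 (limma adjusted p = 0.000265), and its second probe set by 0.48. The mean was 6.69 in high, 6.33 in middle and 5.80 in low muscles, against a filter limit of 6.27 over all 59 arrays. MSTN therefore entered the test narrowly, through its higher values outside the low group. FST, which encodes the myostatin antagonist follistatin, was higher as well, by 0.62 ± 0.13 (0.00073), but passed neither with the first component (0.22, 0.349) nor without the 8 muscles (0.39, 0.0738). TOB1, an antiproliferative protein of the BTG family, ran from 10.76 to 11.86 (median 11.26) and from 9.75 to 11.06 (median 10.42). Of its high muscles 15 exceeded every low one, and it had the smallest adjusted p of the 12, 5.51e-08, at a limma difference of 0.84 ± 0.09. EGF, for epidermal growth factor, differed by 0.82 ± 0.12 (limma adjusted p = 1.73e-05), with all 20 high muscles above the low median.

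The others of the 12 besides PPP1R3B were FBXL4 (1.02 ± 0.25), the cytochrome P450 gene CYP3A29 (0.93 ± 0.28), RIPOR2 (0.90 ± 0.25), NRN1 (0.82 ± 0.27), PGM3 of amino sugar synthesis (0.78 ± 0.13), ANKRD44 (0.77 ± 0.19) and the histone gene HIST1H2BD (0.76 ± 0.16). Their limma adjusted p ran from 8.13e-05 (PGM3) to 0.0258 (NRN1). The middle medians of CYP3A29 (8.26), RIPOR2 (6.70) and NRN1 (7.93) lay above the high medians (8.19, 6.55 and 7.84). In these genes the low group was set off from both other groups. In the rest of the 12 the middle median lay between those of the high and low groups. Second probe sets gave -0.03 for FBXL4 and -0.05 for RIPOR2, so these calls rest on 1 probe set each. RIPOR2 had a low mean of 5.75, under the filter limit of 6.27, and entered the test through its higher values in the other muscles. With the first component TOB1 (0.74, limma adjusted p = 0.000161) and EGF (0.49, 0.0188) passed. Without the 8 muscles these passed too (0.000147 and 0.00687), as did MSS51 (0.52, 0.0264) and PGM3 (0.55, 0.0172), but not MSTN (0.55, 0.0601).

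**Figure D5:**
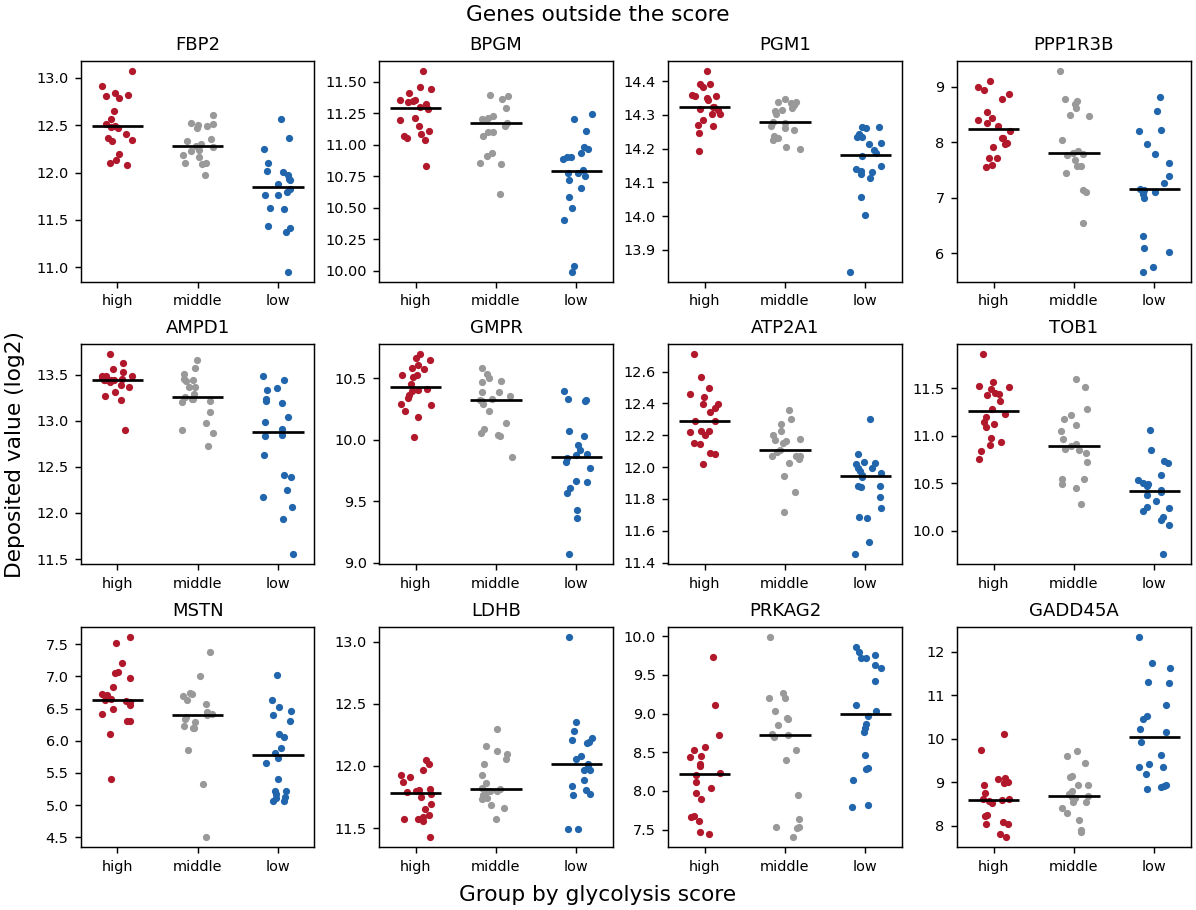
Deposited log2 values (vertical axes) of 12 genes outside the score in each muscle by group, with medians as black bars. All 20 high muscles lie above the low median in FBP2, BPGM, PGM1, PPP1R3B, AMPD1, GMPR, ATP2A1 and TOB1. The low values of PPP1R3B, AMPD1 and GADD45A spread more widely than the high ones.

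The 12 largest negative differences likewise included varied genes. GADD45A, a stress-induced inhibitor of the cell cycle, ran from 7.73 to 10.10 (median 8.60) log2 in high and from 8.85 to 12.35 (median 10.04) in low muscles. All 20 low muscles lay above the high median and 10 above every high muscle. The difference was -1.51 ± 0.27 (SE, n = 20 and 20, limma adjusted p = 0.000114), or 2.84-fold higher in low muscles. CDKN3, a phosphatase of the cell cycle, ran from 8.43 to 10.00 (median 9.20) and from 9.00 to 10.61 (median 10.08) and differed by -0.82 ± 0.13 (4.23e-05). The strain-responsive genes ANKRD1 (-0.95 ± 0.21, limma adjusted p = 0.00139) and XIRP1 (-0.86 ± 0.26, 0.0127) were lower in high muscles. So were the transcription regulators NFIL3 (-0.97 ± 0.23, 0.00269) and TGIF1 (-0.85 ± 0.19, 0.00134) and the growth factor TGFB2 (-0.82 ± 0.18, 0.00147). The others were CKS2 (-0.95 ± 0.26), the lipid droplet coat PLIN2 (-0.89 ± 0.27), RETREG1 (-0.87 ± 0.21), the stress-induced ZFAND2A (-0.86 ± 0.21) and SPECC1 (-0.79 ± 0.24), with limma adjusted p from 0.00285 (ZFAND2A) to 0.0157 (SPECC1).

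The set-apart low muscles were prominent in these genes. With the first component CDKN3 alone of the 12 passed (-0.45, limma adjusted p = 0.0485), and CKS2, PLIN2, XIRP1 and SPECC1 had values above 0 that did not pass. Without the 8 muscles GADD45A (-0.78, 0.0171) and CDKN3 (-0.63, 0.0126) passed. PLIN2 had a median of 9.15 log2 in the 8 muscles, 7.04 in the other 12 low muscles and 7.08 in the high group. GADD45A had 11.30, 9.34 and 8.60, and all 20 low muscles lay above the high median.

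Heat shock genes were lower in high muscles, 10 of 18 with none higher. This was 55.6% called against 24.9% over all genes, at a median difference of -0.30. DNAJA1, a co-chaperone of HSP70, ran from 9.93 to 12.46 (median 11.34) log2 in high and from 10.98 to 13.52 (median 11.92) in low muscles, a difference of -0.76 ± 0.19 (limma adjusted p = 0.00327). The mitochondrial chaperones HSPE1 (-0.24 ± 0.05, 0.00127) and HSPD1 (-0.27 ± 0.07, 0.00441) were lower as well. The small heat shock protein CRYAB differed by -0.23 ± 0.06 (0.00813), and its second probe set by -1.32. Of 29 proteasome genes, which degrade tagged proteins, 10 were lower and 2 higher (41.4% against 24.9% over all genes), with a median of -0.11. PSMB7 ran from 11.30 to 11.61 (median 11.45) and from 11.30 to 11.94 (median 11.63), with 13 low muscles above every high one, and differed by -0.20 ± 0.04 (limma adjusted p = 0.000395). PSMA5 differed by -0.36 ± 0.08 (0.00196) and PSMD6 by -0.22 ± 0.05 (0.00217). No heat shock gene passed with the first component or without the 8 muscles, and of the lower proteasome genes PSMB7 alone passed in the latter fit (0.0324).

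Of 15 genes of proteolysis and atrophy 3 were higher and 2 lower (33.3% called against 24.9% over all genes), with a median of -0.02. CAPN1, a calpain that takes part in the softening of meat after slaughter, ran from 7.94 to 8.53 (median 8.22) log2 and from 7.60 to 8.20 (median 7.999), with 16 high muscles above every low one. It differed by 0.29 ± 0.05 (limma adjusted p = 2.66e-05). CAPN3, the calpain typical of muscle, differed by 0.72 ± 0.12 (5.12e-05), but its second probe set gave -0.06. Both passed with the first component (0.00639 and 0.00606) and without the 8 muscles (0.00148 and 0.000975). The lysosomal protease CTSD (-0.31 ± 0.07, limma adjusted p = 0.00234) and the ubiquitin ligase subunit FBXO21 (-0.26 ± 0.07, 0.00425) were lower, and the other probe sets of FBXO21 ranged from -0.07 to 0.17. Neither CTSD nor FBXO21 passed in either further fit.

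Among 13 transcription regulators 3 were higher and 1 lower, a share of 30.8% against 24.9% over all genes. MEF2D, a factor of muscle gene expression, ran from 10.10 to 11.20 (median 10.63) log2 in high and from 9.85 to 10.52 (median 10.27) in low muscles, and 17 high muscles exceeded every low one. It differed by 0.42 ± 0.07 (limma adjusted p = 4.68e-05) and passed with the first component (0.0188) and without the 8 muscles (0.00757). MEF2A (0.19 ± 0.06, limma adjusted p = 0.0274) and SIX4 (0.19 ± 0.07, 0.0479) were higher and MYC was lower (-0.70 ± 0.25, 0.0361), and none of these 3 passed in either further fit. The SIX4 call ended when any 1 of 26 pigs was left out (up to 0.0784) and the MYC call when any 1 of 9 was (up to 0.0618). Of 11 genes of the hypoxia response, whose main factor is known to drive glycolytic genes, 4 were higher and 2 lower. This was 54.5% against 24.9% over all genes, and none of these calls passed in either further fit. MXI1 (0.38 ± 0.09, limma adjusted p = 0.00212), EGLN1 (0.17 ± 0.05, 0.0233) and P4HA2 (-0.50 ± 0.16, 0.0218) were among them. VEGFA was higher by 0.15 ± 0.04 (0.00448) with its brightest probe set, but its 3 others ranged from -0.40 to -0.13 and the mean of all gave -0.18 (0.0405), so its direction depends on the probe set.

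Genes that mark other cells differed in few cases, against 24.9% called over all genes. None of 8 macrophage and leukocyte, 8 endothelial, 6 smooth muscle and pericyte, 4 satellite cell, 2 nerve and 1 red blood cell marker tested passed in limma. The mean level of the endothelial markers ran from 7.47 to 8.03 log2 in high and from 7.62 to 8.26 in low muscles. That of the macrophage markers ran from 6.82 to 8.21 and from 6.54 to 8.23, so both ranges overlapped widely. Of 4 adipocyte markers CFD was higher by 0.20 ± 0.07 (limma adjusted p = 0.0401), a call that ended when any 1 of 21 pigs was left out (up to 0.0662). The fat cell carrier FABP4 had medians of 10.77 and 10.89 and did not pass (0.883). Of 16 matrix genes COL15A1 alone passed, higher by 0.40 ± 0.09 (limma adjusted p = 0.00185). Its median was 10.42 log2 in the 8 set-apart muscles and 10.95 in the other 12 low ones. Neither CFD nor COL15A1 passed in either further fit. Of 55 ribosomal protein genes RPLP2 (-0.12, 0.0132) and RPL34 (-0.09, 0.0239) were lower, and RPL34 alone of these passed in both further fits (0.00411 and 0.00778).

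The 19 middle muscles, which neither group used, covered only scores from -0.16 to 0.31. For 1044 of the 1224 called genes (85.3%) their median lay between those of the high and low groups, against 2522 of all 4920 genes (51.3%). The called genes were chosen for a gap between those groups, which makes a median between them likely beforehand. The share is therefore no support for the calls, and all 4920 genes include the called ones. Within the middle muscles alone the slope on the score had the sign of the group difference in 826 of 1224 genes (67.5%), against 2774 of all 4920 (56.4%). These shares count genes that can vary together, and neither was tested. Limma with adjustment over all 11992 probe sets called 0 (0%) there, and also 0 with a trended, robust variance. At an unadjusted p under 0.05 limma gave 392 (3.27%), no more than expected with no slope at all. Over this narrow range the slope of a single gene was not detectable with 19 arrays.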

How the data were processed

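The authors' deposited table holds 1 log2 value per probe set and array. Per the submitters' processing notes they come from GCRMA (no version stated), which corrects probe background by sequence, normalises between arrays and summarises probes. The log base was read from values between 2.39 and 15.04. Differences between bright values can be compressed near the top of the range. No count lies behind an array value, and the number of arrays limits the precision.

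The platform annotation gave 1 symbol for 10099 of 24123 probe sets, several for 198 and none for 13826, and 9989 symbols were updated through Entrez identifiers. Without 124 controls, 12000 probe sets were kept, those whose mean reached the median of 6.27. Those annotated to the 8 score genes were left out (8 probe sets), which left 11992. Unannotated probe sets of these genes could not be left out. The 20 highest and 20 lowest arrays were compared with lmFit and eBayes (limma 3.58.1, R 4.3.3) and Benjamini-Hochberg adjustment over all 11992. Tables and figures were made with Python 3.11.15, and the fit was tested on simulated data.

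The members and the 32 gene lists (638 genes, 463 with a probe set and 417 tested) were chosen with earlier results of these data known. Named were the 12 largest differences in each direction, any member of the energy, glycogen, transport and fibre lists, and up to 4 members of other lists with the lowest p. Alternatives changed the filter, normalisation, group size, score genes, covariate, variance model and arrays. No paired analysis applies to 1 group of separate pigs.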

Additional observations from a re-analysis of the deposited data

How the results depend on the processing

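The main counts of 1576 probe sets higher and 1176 lower changed most with the first component as a covariate (502 and 107) and, chosen after seeing the data, without the 8 low arrays under -1.2 (533 and 157). With 15 arrays a group 746 were lower, and with the score drawn without TPI1 767. Leaving out 1 of the 40 arrays at a time gave 1385 to 1669 higher and 988 to 1329 lower. All other settings kept both counts within 1.5 times. Within the middle arrays 1 probe set was called without the filter on dim probe sets, against 0 with it. With the first component the differences of CKS2 (0.13), CRYAB (0.00617), DNAJA1 (0.0038), MYC (0.20), P4HA2 (0.15), PLIN2 (0.20), SPECC1 (0.0434) and XIRP1 (0.21) turned positive, none past the threshold. When all probe sets of a gene were averaged, TPM1 (-0.0311) and VEGFA (-0.18) turned negative. No other named gene that passed the threshold changed direction under any setting run. The cause of these changes was not tested.
The grouping rests on arrays without a batch label, and neither sex nor handling before slaughter is given by the labels. The values give signal over background only through the filter at the median.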
